A study of Mus musculus with 12 samples.

Results

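A set of 44 mouse genes for glutathione-based detoxification and its control by NRF2 was followed in liver RNA. The set was defined by gene symbol: 21 glutathione S-transferases, 6 genes of glutathione synthesis and recycling, 8 redox enzymes, 3 genes of conjugation and export, 4 genes of NADPH supply, and the regulators Nfe2l2 and Keap1. All 44 were found among the 50600 annotated genes, and 43 of them were among the 15219 genes that passed the filter on low counts. The member that did not pass was Mgst2, a microsomal transferase, with 19 counts summed over the Pdx1 gRNA libraries, 43 over the control gRNA libraries and 10 over the PBS libraries.

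NRF2, encoded by Nfe2l2, is a transcription factor that KEAP1 holds in the cytoplasm and marks for degradation. Electrophiles and oxidants modify cysteines of KEAP1, and NRF2 then accumulates, pairs with small MAF proteins and binds antioxidant response elements near its target genes. In liver these targets include enzymes that make and reduce glutathione, transferases that join it to reactive compounds, enzymes that supply NADPH, and pumps that export the conjugates.

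Polyadenylated RNA was sequenced from livers of Rosa26-LSL-dCas9-p300 mice, in 3 groups of 4 libraries. The strain carries at Rosa26 a nuclease-dead Cas9 fused to the acetyltransferase p300, behind a stop cassette that Cre recombinase removes, and a guide RNA (gRNA) steers the fusion to a chosen site. One group was given adeno-associated virus (AAV) with a gRNA against Pdx1, one the same kind of virus with a control gRNA labelled non-targeting, and one PBS alone. The virus was labelled AAV.Cbh.gRNA and the dose was 1e+12 viral genomes per mouse, by tail vein at about 8 weeks of age, with livers taken 2 weeks later. All 3 groups shared the strain, so the PBS mice carried the transgene but no virus and no gRNA. The source of Cre, the sex of the mice and whether each library came from its own mouse are not given in the sources used here, so p-values measure the spread between libraries. The titles of the PBS and control gRNA libraries end in a 2 in brackets, which those of the Pdx1 gRNA libraries lack and the labels do not explain, so what it marks cannot be told apart from the Pdx1 gRNA group. Libraries held 11824767 to 22008046 assigned counts. Pdx1, the targeted gene, had 368 counts summed over the Pdx1 gRNA libraries, against 2 over the control gRNA libraries and 0 over the PBS libraries. Xist, which is transcribed from an inactive X, was at 3.14 and 4.41 CPM in PBS libraries 2 and 3, and Ddx3y, a gene on the Y chromosome, at 97.3 and 84.8 CPM. The other 10 libraries, all 8 virus libraries among them, had 584 to 1443 CPM of Xist. Results against PBS are therefore also given without these PBS libraries.

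Values are given as CPM, the counts of a gene per 1e+06 counts of the tested genes after TMM scaling. Differences are log2 fold changes ± SE from edgeR's quasi-likelihood test on all 12 libraries, with p-values adjusted by Benjamini-Hochberg over 15219 genes. A gene is said to have risen or fallen when this adjusted p was under 0.05.

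Most of the set was higher after either virus than after PBS. After the Pdx1 gRNA virus 21 of the 43 tested members rose and 3 fell, while 22.1% of all tested genes were called, 11.7% higher and 10.4% lower. After the control gRNA virus 28 rose and 3 fell, against a background of 32.1% called, 16.3% higher and 15.8% lower. The median log2 fold change of the members was 0.85 after Pdx1 gRNA and 1.11 after control gRNA, and that of all tested genes was -0.06 after Pdx1 gRNA and -0.01 after control gRNA. Changes of at least 4-fold were found for 9 members after Pdx1 gRNA (3.27% of all tested genes) and for 13 after control gRNA (5.04%). All 4 libraries of the group lay outside the range of the PBS libraries for 22 members after Pdx1 gRNA, 20 above (Gpx2 among them, by library size alone) and 2 below, where 21.4% of all tested genes did so, 12.7% above and 8.74% below. After control gRNA this held for 29 members, 27 above and 2 below, with a background of 28.8%, 16.5% above and 12.3% below. The log2 fold change was below 0 for 9 of the 43 members in each comparison, against 53.8% of all tested genes after Pdx1 gRNA and 50.5% after control gRNA. Both comparisons use the same 4 PBS libraries. The members were chosen with earlier results of these data known, so their shares beside the background describe the set and do not test it. Bulk RNA cannot tell fewer cells of a type from less RNA per cell.

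**Figure D1:**
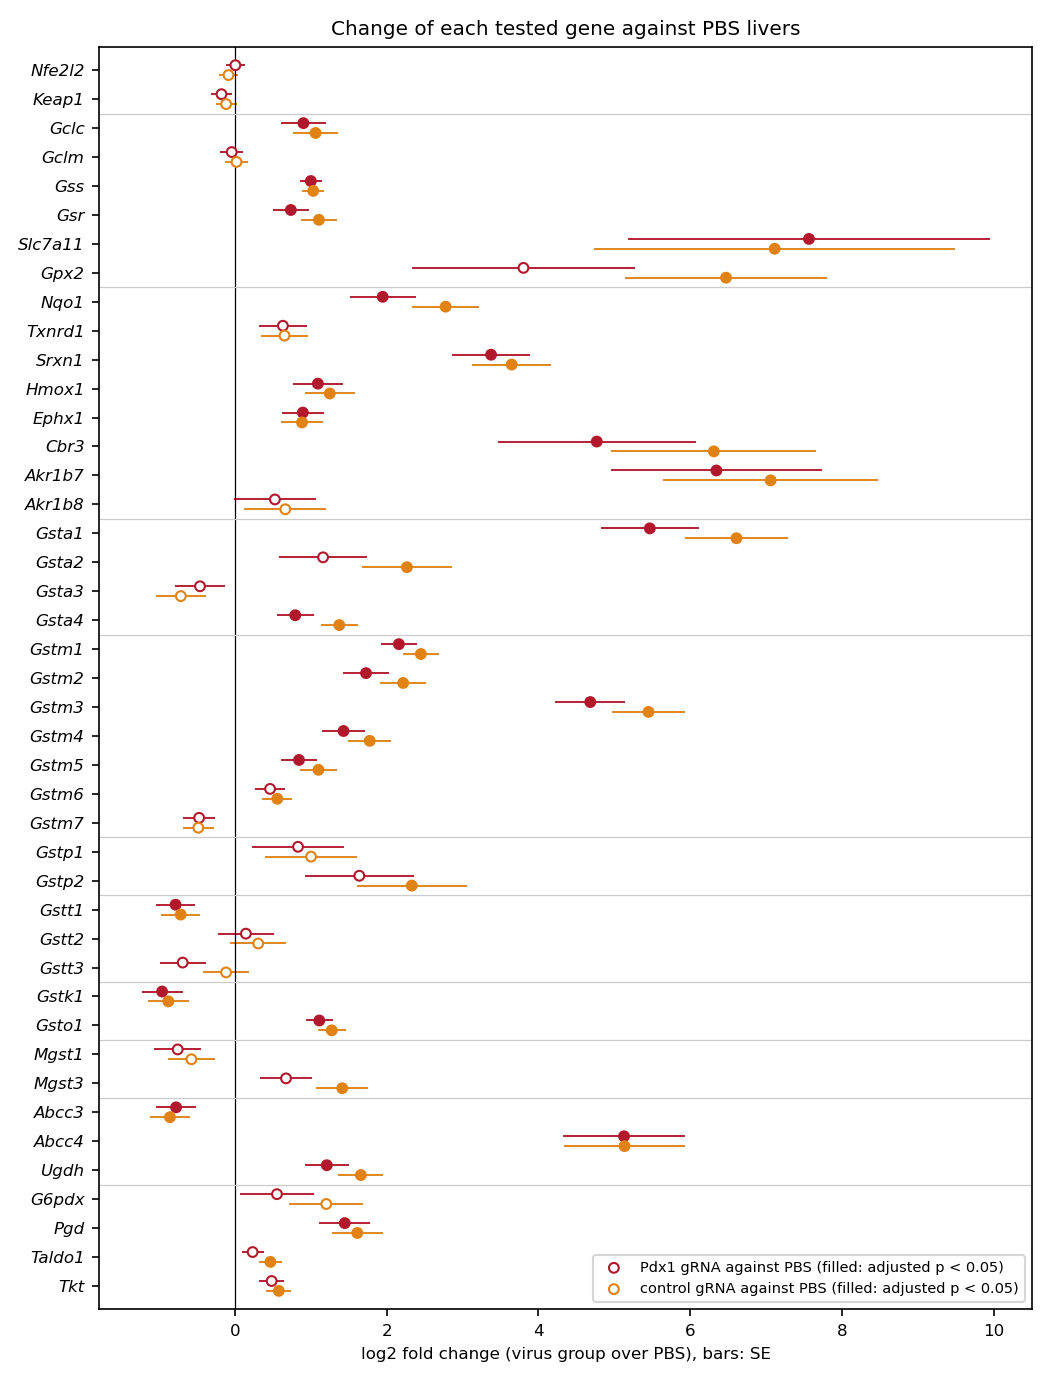
Log2 fold change (x axis, bars are SE) of the 43 tested genes in Pdx1 gRNA livers and in control gRNA livers, each against PBS livers, with 4 libraries a group. Filled points passed an adjusted p of 0.05, and grey lines separate the roles. Most points lie right of 0, up to 7.56 for Slc7a11. Of the points left of 0, those of Gstt1, Gstk1 and Abcc3 are filled in both comparisons.

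The transcripts of the sensor pair did not pass the test. Nfe2l2 had 88.4, 92.3, 86.3 and 81.3 CPM in Pdx1 gRNA libraries 1 to 4, 71.6, 85.4, 85.5 and 84.4 CPM in control gRNA libraries, and 83.1, 76.2, 102 and 85.2 CPM in PBS libraries. The 3 groups overlapped. Its log2 fold change was 0.01 ± 0.12 for Pdx1 gRNA against PBS and -0.08 ± 0.12 for control gRNA against PBS, with edgeR adjusted p = 0.972 and 0.637. Keap1 averaged 56.7 ± 3.21 CPM after Pdx1 gRNA, 59.1 ± 7.22 after the control gRNA and 64.0 ± 10.1 after PBS (SD, n = 4 each), with log2 fold changes of -0.18 ± 0.14 after Pdx1 gRNA and -0.11 ± 0.14 after control gRNA against PBS. NRF2 is controlled to a large extent through the stability of its protein, which RNA does not measure.

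Among 12 other genes for partners and repressors of NRF2, 3 rose and 1 fell after Pdx1 gRNA, and 3 rose and 3 fell after control gRNA. Of all tested genes, 11.7% rose and 10.4% fell after Pdx1 gRNA, and 16.3% rose and 15.8% fell after control gRNA. With 12 genes, these counts are not read as a result about the list. Sqstm1, whose product p62 binds KEAP1, had 1342, 1871, 1399.6 and 2442 CPM in Pdx1 gRNA libraries 1 to 4, 1757, 1147, 1620.4 and 1423 CPM in control gRNA libraries and 356, 606, 616 and 565 CPM in PBS libraries, with no overlap between virus and PBS libraries. Its log2 fold change was 1.72 for Pdx1 gRNA against PBS and 1.47 for control gRNA against PBS. Bach1, a repressor that competes with NRF2 for the same elements, fell in both comparisons, by 0.70 on the log2 scale after Pdx1 gRNA and by 1.04 after control gRNA. Its control gRNA libraries all lay below PBS, while its Pdx1 gRNA libraries overlapped PBS. Rbx1, of the same list, rose by 0.63 after Pdx1 gRNA and by 0.75 after control gRNA, with every virus library above every PBS library.

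Glutathione synthesis and recycling rose in 4 of 6 members after Pdx1 gRNA and in 5 of 6 after control gRNA. The share of all tested genes that rose was 11.7% after Pdx1 gRNA and 16.3% after control gRNA. Gclc, the catalytic subunit of glutamate-cysteine ligase and the rate-limiting step, had 546, 724, 844 and 1204 CPM in Pdx1 gRNA libraries 1 to 4, 644, 772, 1202 and 1091 CPM in control gRNA libraries and 285, 562, 532 and 396 CPM in PBS libraries. The control gRNA libraries all lay above the PBS libraries, and Pdx1 gRNA library 1 lay below the highest PBS library. The log2 fold change was 0.90 ± 0.30 for Pdx1 gRNA against PBS (edgeR adjusted p = 0.0463) and 1.06 ± 0.30 for control gRNA against PBS (adjusted p = 0.0176, edgeR). Gclm, the modifier subunit of the same ligase, was not called and had 237, 278, 269.8 and 208 CPM in Pdx1 gRNA libraries, 224, 253, 258 and 301 CPM in control gRNA libraries and 238, 271, 281 and 229 CPM in PBS libraries. The 3 groups overlapped throughout, and the log2 fold changes against PBS were -0.04 ± 0.15 after Pdx1 gRNA and 0.02 ± 0.15 after control gRNA. Gss, the synthetase that completes glutathione, had 211, 246, 228 and 281 CPM in Pdx1 gRNA libraries, 229, 229, 258 and 272 CPM in control gRNA libraries and 136, 118, 119 and 109.7 CPM in PBS libraries. Every virus library lay above every PBS library, and Gss rose by 1.00 ± 0.14 after Pdx1 gRNA and 1.03 ± 0.14 after control gRNA on the log2 scale, with edgeR adjusted p = 0.000897 and 0.000523. Gsr, the reductase that regenerates glutathione with NADPH, averaged 142 ± 42.9 CPM after Pdx1 gRNA, 184 ± 40.3 after the control gRNA and 85.4 ± 20.6 after PBS (SD, n = 4 each) and rose by 0.74 ± 0.24 after Pdx1 gRNA and 1.11 ± 0.24 after control gRNA.

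The calls of Gclc and Gsr after Pdx1 gRNA rested on most single libraries. Gclc lost its call without any 1 of 10 libraries, that is all but control gRNA 1 and Pdx1 gRNA 1, with edgeR adjusted p up to 0.151. Gsr lost it without any 1 of 9 libraries, all but control gRNA 3, Pdx1 gRNA 1 and Pdx1 gRNA 3, with edgeR adjusted p up to 0.153. After control gRNA Gsr and Gss kept their calls without each single library, and Gclc lost its call without control gRNA 3 (edgeR adjusted p = 0.0660).

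Slc7a11 encodes the exchanger that brings in cystine, the source of cysteine for glutathione. Its promoter is shown because it was the promoter of the set that held the amino acid response element (TGATGNAAN, searched on both strands), in RefSeq's GRCm38.p6 window of 250 bases before to 50 bases after the start site at chr3:50443564-50443863, minus strand, with both matches in capitals.
Slc7a11: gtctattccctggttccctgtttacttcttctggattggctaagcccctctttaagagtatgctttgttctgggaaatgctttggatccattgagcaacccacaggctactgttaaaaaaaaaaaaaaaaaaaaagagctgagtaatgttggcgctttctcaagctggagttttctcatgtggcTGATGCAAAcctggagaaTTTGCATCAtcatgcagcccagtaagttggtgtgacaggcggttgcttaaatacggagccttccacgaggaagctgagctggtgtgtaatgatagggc
The first match starts 66 bases and the second, on the other strand, 48 bases before the start site. The element was found in 3.95% of all 32851 promoter windows of this length and in 1 of the 49 windows of the members. Slc7a11 had 0.155, 1.55, 0.0755 and 123 CPM in Pdx1 gRNA libraries 1 to 4, 39.8, 4.64, 38.8 and 7.87 CPM in control gRNA libraries and 0.120, 0.0950, 0.307 and 0.143 CPM in PBS libraries. All control gRNA libraries lay above all PBS libraries, while Pdx1 gRNA library 1 lay within the PBS range and library 4 held nearly all the counts of its group. Pdx1 gRNA 3 and PBS 2 had 1 count each, so the lower CPM of Pdx1 gRNA 3 reflects library size alone. The log2 fold change was 7.56 ± 2.38 for Pdx1 gRNA against PBS (edgeR adjusted p = 0.0426) and 7.11 ± 2.37 for control gRNA against PBS (adjusted p = 0.0407, edgeR). Without Pdx1 gRNA library 4 the first value was 1.77 ± 1.38, with edgeR adjusted p = 0.420. That call was also lost without any 1 of PBS 1 to 4 or control gRNA 1, 3 or 4. After control gRNA the call was lost without any 1 of PBS 1 to 4, control gRNA 1 or control gRNA 3, with edgeR adjusted p up to 0.0872.

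Gpx2, a glutathione peroxidase best known from the gut epithelium, was nearly absent after PBS. It had 0.362, 0.369, 0.0755 and 1.63 CPM in Pdx1 gRNA libraries, 1.49, 0.574, 11.7 and 2.44 CPM in control gRNA libraries and 0.0599, 0, 0 and 0.0715 CPM in PBS libraries. Pdx1 gRNA 3, PBS 1 and PBS 4 each had 1 count, so the order of these libraries reflects library size alone. The control gRNA libraries all lay above PBS, and control gRNA 3 stood well above the rest of its group. Its summed counts were 45 in the Pdx1 gRNA group, 378 in the control gRNA group and 2 in the PBS group. Scaled by library size, the ratio to PBS was 17.4 after Pdx1 gRNA (95% counting interval 4.55 to 148) and 109 after control gRNA (30.0 to 905), where the intervals cover counting error only. The edgeR test called the rise after control gRNA (adjusted p = 0.00367) and not that after Pdx1 gRNA (adjusted p = 0.0819). The log2 fold change after control gRNA was 6.47, and 5.02 without control gRNA 3, still called.

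Of the 8 redox enzymes, 6 rose in both comparisons, where 11.7% of all tested genes rose after Pdx1 gRNA and 16.3% after control gRNA. Srxn1 encodes sulfiredoxin, which repairs overoxidized peroxiredoxins. Its promoter window is printed because Srxn1 rose strongly and the window holds the core of the antioxidant response element (TGACNNNGC). The core is in capitals as read on the other strand and starts 28 bases after the start site (GRCm38.p6, chr2:152105274-152105573, plus strand).
Srxn1: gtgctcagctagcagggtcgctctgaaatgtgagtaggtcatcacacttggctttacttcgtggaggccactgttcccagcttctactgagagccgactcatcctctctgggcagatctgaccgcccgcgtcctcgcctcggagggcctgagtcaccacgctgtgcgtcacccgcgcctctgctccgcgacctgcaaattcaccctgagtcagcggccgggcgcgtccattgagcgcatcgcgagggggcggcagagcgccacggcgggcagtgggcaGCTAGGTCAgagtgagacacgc
Srxn1 had 219, 350.1, 181 and 867 CPM in Pdx1 gRNA libraries 1 to 4, 363, 341, 737 and 513 CPM in control gRNA libraries and 19.7, 45.4, 54.1 and 36.9 CPM in PBS libraries. Every virus library lay above every PBS library, with Pdx1 gRNA 4 and control gRNA 3 highest. On the log2 scale the change was 3.38 ± 0.51 for Pdx1 gRNA against PBS and 3.65 ± 0.52 for control gRNA against PBS, with edgeR adjusted p = 0.00116 and 0.000598. Without Pdx1 gRNA 4 the first of these changes was 2.66, still called.

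Nqo1, the quinone reductase often used as a readout of NRF2, had 23.8, 26.2, 21.8 and 62.4 CPM in Pdx1 gRNA libraries, 47.9, 34.8, 86.0 and 70.0 CPM in control gRNA libraries and 7.25, 5.13, 6.56 and 15.7 CPM in PBS libraries. The virus libraries did not overlap the PBS libraries, and 3 of the 4 Pdx1 gRNA libraries lay below all control gRNA libraries. Nqo1 rose on the log2 scale by 1.95 ± 0.43 for Pdx1 gRNA against PBS (edgeR adjusted p = 0.00840) and 2.78 ± 0.44 for control gRNA against PBS (adjusted p = 0.00107, edgeR). Cbr3, a carbonyl reductase, had 2.95, 13.4, 3.47 and 75.7 CPM in Pdx1 gRNA libraries, 16.6, 20.3, 146 and 97.1 CPM in control gRNA libraries and 0.360, 1.90, 0.615 and 0.787 CPM in PBS libraries. Within each virus group the libraries spanned a wide range without reaching the PBS libraries, and the log2 fold changes were 4.77 ± 1.30 after Pdx1 gRNA and 6.31 ± 1.35 after control gRNA. The Cbr3 call after Pdx1 gRNA was lost without any 1 of PBS 1, PBS 3, PBS 4 or Pdx1 gRNA 4 (edgeR adjusted p up to 0.0804). Without Pdx1 gRNA 4 the Cbr3 value after Pdx1 gRNA was 2.88 and without PBS 2 it was 5.37, and after control gRNA it was 5.64 without control gRNA 3 and 6.91 without PBS 2.

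Akr1b7, an aldo-keto reductase, had the largest log2 fold change of the 8 redox enzymes in both comparisons. It had 37.3, 25.4, 32.9 and 307 CPM in Pdx1 gRNA libraries, 439, 63.6, 131 and 27.5 CPM in control gRNA libraries and 0.420, 0.380, 0.102 and 3.79 CPM in PBS libraries. The groups did not overlap with PBS, and the log2 fold changes were 6.34 ± 1.39 after Pdx1 gRNA and 7.06 ± 1.42 after control gRNA (edgeR adjusted p = 0.00949 and 0.00436). Single libraries moved the size of these values. For Pdx1 gRNA against PBS it was 4.66 without Pdx1 gRNA 4 and 8.27 without PBS 4, and for control gRNA against PBS it was 5.87 without control gRNA 1 and 8.98 without PBS 4, each still called. Its neighbour Akr1b8, a related reductase, stayed low: it averaged 3.54 ± 2.76 CPM after Pdx1 gRNA, 3.90 ± 2.78 after the control gRNA and 2.47 ± 0.753 after PBS (SD, n = 4 each) and was not called.

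Hmox1, the heme oxygenase that degrades heme, had 45.6, 67.6, 30.5 and 88.2 CPM in Pdx1 gRNA libraries, 73.4, 69.1, 69.8 and 46.4 CPM in control gRNA libraries and 21.7, 28.9, 16.5 and 41.5 CPM in PBS libraries. Pdx1 gRNA library 3 overlapped the PBS libraries and no control gRNA library did. Hmox1 rose by 1.09 ± 0.33 after Pdx1 gRNA and 1.25 ± 0.33 after control gRNA on the log2 scale (edgeR adjusted p = 0.0318 and 0.0127). Ephx1, the microsomal epoxide hydrolase, averaged 894 ± 149 CPM after Pdx1 gRNA, 887 ± 172 after the control gRNA and 480.2 ± 186 after PBS (SD, n = 4 each) and rose by 0.90 ± 0.27 after Pdx1 gRNA and 0.89 ± 0.27 after control gRNA, with no overlap with PBS in either group. Hmox1 lost its call after Pdx1 gRNA without any 1 of PBS 1 to 3, Pdx1 gRNA 2 or Pdx1 gRNA 4 (edgeR adjusted p up to 0.109). Ephx1 lost it after Pdx1 gRNA without any 1 of PBS 4, control gRNA 3 or Pdx1 gRNA 2 to 4 (up to 0.0927), and after control gRNA without any 1 of PBS 4, control gRNA 3 or control gRNA 4 (up to 0.0721). Txnrd1, the thioredoxin reductase, had 197, 248, 223 and 450.1 CPM in Pdx1 gRNA libraries, 271, 226, 346 and 291 CPM in control gRNA libraries and 89.0, 242, 214 and 176 CPM in PBS libraries. Both virus groups overlapped PBS, and the log2 fold changes of 0.63 ± 0.32 after Pdx1 gRNA and 0.65 ± 0.32 after control gRNA were not called (edgeR adjusted p = 0.168 and 0.129).

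**Figure D2:**
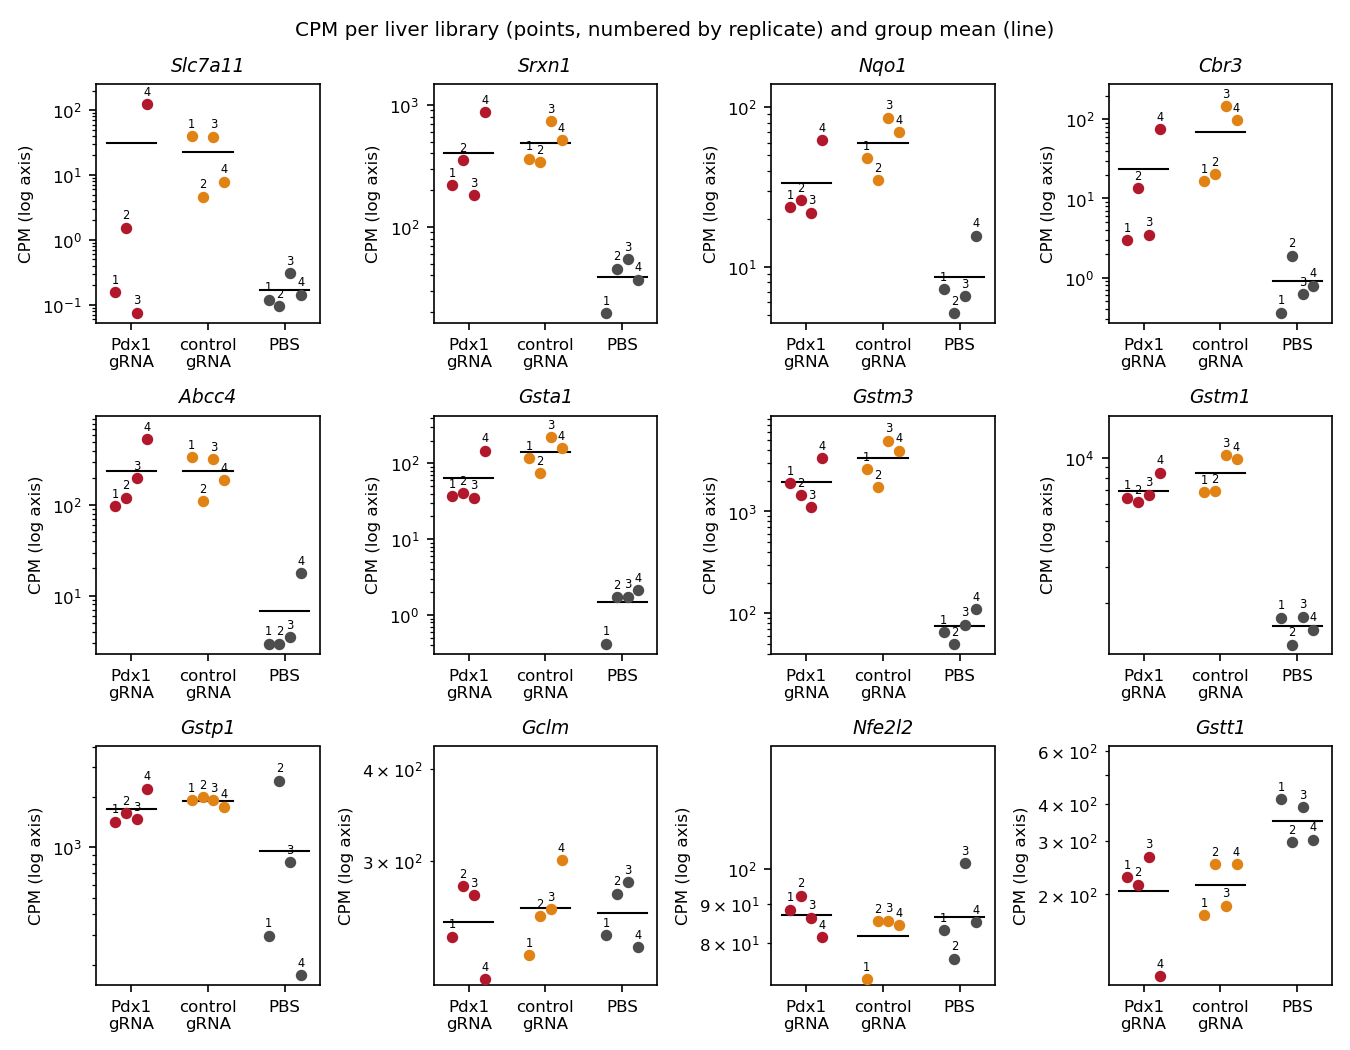
CPM of 12 genes in each liver library (points, numbered by replicate, log axis) with group means (lines), Pdx1 gRNA left, control gRNA next and PBS right. The virus libraries of Srxn1, Nqo1, Cbr3, Abcc4, Gsta1, Gstm3 and Gstm1 lie above all PBS libraries, those of Gclm and Nfe2l2 overlap them, and Gstt1 lies below.

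Of the 20 tested glutathione S-transferases, 8 rose and 2 fell after Pdx1 gRNA, and 12 rose and 2 fell after control gRNA. Background shares of all tested genes were 11.7% higher and 10.4% lower after Pdx1 gRNA, and 16.3% higher and 15.8% lower after control gRNA. The falls did not exceed these shares and are not read as a result about the transferases. The classes differed in their counts, to which the same shares apply. The mu class, encoded in a cluster on chromosome 3 (mm10, Gstm5 at 107895821 to Gstm4 at 108044894), rose in 5 of 7 members after Pdx1 gRNA and in 6 of 7 after control gRNA. Gstm3, a mu transferase, had 1899.9, 1455, 1109.8 and 3336 CPM in Pdx1 gRNA libraries 1 to 4, 2613, 1735, 4962 and 3961 CPM in control gRNA libraries and 65.9, 50.3, 77.7 and 110.0 CPM in PBS libraries. Every virus library lay far above the highest PBS library, and Pdx1 gRNA 3 was the lowest of them. The log2 fold change was 4.68 ± 0.46 for Pdx1 gRNA against PBS (edgeR adjusted p = 9.4e-05) and 5.45 ± 0.48 for control gRNA against PBS (adjusted p = 5.3e-05, edgeR).

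Gstm1, the most abundant transferase of the virus groups, had 6431, 6134, 6648 and 8506 CPM in Pdx1 gRNA libraries, 6821, 6897, 10284 and 9881 CPM in control gRNA libraries and 1708, 1268, 1725 and 1495 CPM in PBS libraries. The virus and PBS libraries were fully apart, and Gstm1 rose by 2.16 ± 0.24 after Pdx1 gRNA and 2.45 ± 0.24 after control gRNA (edgeR adjusted p = 1.7e-04 and 8.8e-05). Gstm2 rose by 1.73 ± 0.30 after Pdx1 gRNA and 2.22 ± 0.31 after control gRNA, Gstm4 by 1.43 ± 0.28 after Pdx1 gRNA and 1.78 ± 0.28 after control gRNA, and Gstm5 by 0.85 ± 0.24 after Pdx1 gRNA and 1.10 ± 0.24 after control gRNA, each without overlap with PBS. Gstm5 was a low-abundance member with 15.7, 16.1, 13.9 and 15.3 CPM in Pdx1 gRNA libraries, 17, 21.9, 18.1 and 15.9 CPM in control gRNA libraries and 13.3, 6.08, 5.33 and 8.94 CPM in PBS libraries. Its call after Pdx1 gRNA was lost without any 1 of PBS 2, PBS 3 or Pdx1 gRNA 1, 2 or 4 (edgeR adjusted p up to 0.0711). Its promoter window is shown as the one of the mu genes that rose in both comparisons and holds the antioxidant core (capitals; GRCm38.p6, chr3:107895604-107895903, plus strand).
Gstm5: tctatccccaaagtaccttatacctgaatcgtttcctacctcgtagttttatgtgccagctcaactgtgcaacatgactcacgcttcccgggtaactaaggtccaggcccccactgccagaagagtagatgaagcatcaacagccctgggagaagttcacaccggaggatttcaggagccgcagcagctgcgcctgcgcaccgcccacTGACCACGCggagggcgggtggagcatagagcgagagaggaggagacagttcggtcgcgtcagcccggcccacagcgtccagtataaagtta

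The cluster did not move as one. Gstm6 averaged 165 ± 34.9 CPM after Pdx1 gRNA, 176 ± 36.8 after the control gRNA and 119.7 ± 18.0 after PBS (SD, n = 4 each), and was called after control gRNA alone (0.56 ± 0.20, edgeR adjusted p = 0.0437), a call lost without any 1 of PBS 1, 2 or 4, control gRNA 2, 3 or 4 or Pdx1 gRNA 2 or 3 (up to 0.118). Gstm7 averaged 49.0 ± 9.37 CPM after Pdx1 gRNA, 48.6 ± 4.08 after the control gRNA and 67.8 ± 21.9 after PBS and was not called, with log2 fold changes of -0.47 ± 0.21 after Pdx1 gRNA and -0.48 ± 0.21 after control gRNA. Counts summed over the mu class before the test gave 2.28 after Pdx1 gRNA and 2.68 after control gRNA on the log2 scale, with edgeR adjusted p = 2.6e-04 and 9.7e-05.

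The alpha class rose in 2 of 4 members after Pdx1 gRNA and in 3 of 4 after control gRNA. Gsta1 and Gsta2 encode near-identical alpha transferases. Of the 100-base windows of Gsta1 transcripts, 80.6% also occur in another gene, mostly the predicted gene Gm3776, and of those of Gsta2 28.4%. Reads that map to several places are not counted by default in the counting program named in the file headers, so the counts of these genes rest on the stretches where they differ. A stretch of coding bases 451 to 510, from GENCODE M21 transcripts on chromosome 9, shows how close the pair is, with the differing bases in capitals.
Gsta1: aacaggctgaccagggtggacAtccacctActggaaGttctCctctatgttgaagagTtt
Gsta2: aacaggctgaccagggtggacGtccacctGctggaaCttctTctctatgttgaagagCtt
Over the coding sequences the pair was 97.9% identical, and Gsta1 and Gm3776 differed at 2 of 672 bases. Gsta1 had 37.0, 40.7, 35.2 and 147 CPM in Pdx1 gRNA libraries, 118, 74.5, 224 and 158 CPM in control gRNA libraries and 0.420, 1.71, 1.74 and 2.15 CPM in PBS libraries. No virus library came near the PBS libraries, and Gsta1 rose by 5.47 ± 0.65 after Pdx1 gRNA and 6.61 ± 0.67 after control gRNA (edgeR adjusted p = 3.7e-04 and 1.2e-04), beside 5.48 ± 0.79 after Pdx1 gRNA and 6.46 ± 0.82 after control gRNA for Gm3776. Without Pdx1 gRNA 4 the value of Gsta1 after Pdx1 gRNA was 4.66, still called.

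Gsta2 had 57.9, 52.6, 64.4 and 160.1 CPM in Pdx1 gRNA libraries, 132, 103, 266 and 219.6 CPM in control gRNA libraries and 5.99, 35.8, 63.4 and 44.9 CPM in PBS libraries. The control gRNA libraries lay above PBS and the Pdx1 gRNA libraries overlapped it, and Gsta2 was called after control gRNA alone (2.27 ± 0.60, edgeR adjusted p = 0.0137), against 1.16 ± 0.58 after Pdx1 gRNA (edgeR adjusted p = 0.172). Summed before the test, Gsta1 and Gsta2 rose by 1.93 after Pdx1 gRNA and by 3.06 after control gRNA, with edgeR adjusted p = 0.0386 and 0.00409. Gsta4, which conjugates the lipid peroxidation product 4-hydroxynonenal, averaged 148 ± 10.3 CPM after Pdx1 gRNA, 221 ± 57.6 after the control gRNA and 85.2 ± 26.5 after PBS (SD, n = 4 each) and rose by 0.80 ± 0.24 after Pdx1 gRNA and 1.38 ± 0.25 after control gRNA, without overlap with PBS. The Gsta4 call after Pdx1 gRNA was lost without any 1 of PBS 2, PBS 4 or Pdx1 gRNA 1 to 4 (edgeR adjusted p up to 0.0859). Gsta3 was not called: it averaged 1033 ± 330.4 CPM after Pdx1 gRNA, 867 ± 204 after the control gRNA and 1419 ± 568 after PBS, with log2 fold changes of -0.46 ± 0.33 after Pdx1 gRNA and -0.71 ± 0.33 after control gRNA.

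The pi class depended on which PBS libraries were compared. Gstp1 and Gstp2 sit side by side on chromosome 19 (mm10, 4035407 to 4042236), and their coding sequences of 633 bases differ at 12 positions. Their first 60 coding bases are shown with the differing bases in capitals (GENCODE M21 transcripts).
Gstp1: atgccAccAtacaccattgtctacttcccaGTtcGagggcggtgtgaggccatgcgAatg
Gstp2: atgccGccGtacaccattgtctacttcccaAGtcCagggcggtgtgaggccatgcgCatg
Gstp1 had 1422, 1608, 1469 and 2244 CPM in Pdx1 gRNA libraries, 1921, 2003, 1921 and 1752 CPM in control gRNA libraries and 297, 2501, 816 and 173 CPM in PBS libraries. PBS library 2 exceeded all virus libraries, and the other 3 PBS libraries lay below all of them. PBS 2 and 3 are the libraries with Ddx3y counts, and both lay above PBS 1 and 4. With all PBS libraries the log2 fold change was 0.83 ± 0.61 for Pdx1 gRNA against PBS and 1.00 ± 0.61 for control gRNA against PBS, with edgeR adjusted p = 0.346 and 0.224. Without PBS 2 and 3 it was 2.84 ± 0.33 after Pdx1 gRNA and 3.0 ± 0.34 after control gRNA, with edgeR adjusted p = 0.00342 and 0.00248.

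Gstp2, at a much lower count, had 10.5, 16.0, 8.61 and 32.3 CPM in Pdx1 gRNA libraries, 31.0, 25.0, 36.6 and 16.4 CPM in control gRNA libraries and 1.08, 15.8, 3.69 and 1.65 CPM in PBS libraries. PBS 2 again stood above the other PBS libraries and overlapped the Pdx1 gRNA group. Gstp2 was called after control gRNA (2.33 ± 0.73, edgeR adjusted p = 0.0292) and not after Pdx1 gRNA (1.64 ± 0.72, edgeR adjusted p = 0.123). Without PBS 2 and 3 the values were 3.64 ± 0.63 for Pdx1 gRNA against PBS and 4.30 ± 0.65 for control gRNA against PBS, both called. The call with all PBS libraries was lost without any 1 of PBS 3, PBS 4, control gRNA 1 or control gRNA 3 (edgeR adjusted p up to 0.0767), and without PBS 2 its value was 3.73. Of the 100-base windows of transcripts, 25.1% of those of Gstp1 and 46.9% of those of Gstp2 occur in another gene, so the split between them is uncertain. Summed before the test, the pair gave 0.84 after Pdx1 gRNA and 1.02 after control gRNA on the log2 scale, with edgeR adjusted p = 0.342 and 0.219.

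Among the theta, kappa, omega and microsomal genes, Gstt1 and Gstk1 fell and Gsto1 rose in both comparisons. Gstt1, a theta transferase that acts on small halogenated compounds, had 229, 215, 267 and 107 CPM in Pdx1 gRNA libraries, 170.4, 252, 184 and 252 CPM in control gRNA libraries and 414, 299, 389 and 304 CPM in PBS libraries. Every virus library lay below every PBS library, and Gstt1 fell by 0.78 ± 0.26 after Pdx1 gRNA and by 0.71 ± 0.26 after control gRNA (edgeR adjusted p = 0.0458 and 0.0499). Gstk1, a kappa transferase of mitochondria and peroxisomes, had 78.2, 60.1, 82.9 and 33.2 CPM in Pdx1 gRNA libraries, 45.8, 90.9, 59.9 and 72.9 CPM in control gRNA libraries and 104, 122, 148 and 120.1 CPM in PBS libraries. It too lay below PBS in every virus library and fell by 0.96 ± 0.27 after Pdx1 gRNA and 0.88 ± 0.27 after control gRNA. These falls were narrow: Gstt1 lost its call in each comparison without any 1 of 10 libraries (edgeR adjusted p up to 0.104 after Pdx1 gRNA and 0.112 after control gRNA). The libraries without which it was kept were control gRNA 1 and Pdx1 gRNA 3 for Pdx1 gRNA against PBS, and Pdx1 gRNA 3 and 4 for control gRNA against PBS. Gstk1 lost its call after Pdx1 gRNA without PBS 2, PBS 3 or Pdx1 gRNA 2 (up to 0.0674) and after control gRNA without PBS 3, control gRNA 1 or control gRNA 3 (up to 0.0706).

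Gsto1, an omega transferase with thioltransferase activity, went the other way. It had 155, 190.2, 205 and 265 CPM in Pdx1 gRNA libraries, 242, 208, 249 and 214 CPM in control gRNA libraries and 96.2, 90.6, 76.7 and 113 CPM in PBS libraries. The virus libraries all lay above PBS, and Gsto1 rose by 1.11 ± 0.18 after Pdx1 gRNA and 1.28 ± 0.18 after control gRNA (edgeR adjusted p = 0.00172 and 0.000605). Among the other theta genes, Gstt2 averaged 137 ± 31.8 CPM after Pdx1 gRNA, 153 ± 28.1 after the control gRNA and 124 ± 90.1 after PBS, and Gstt3 averaged 38.6 ± 14.0 CPM in Pdx1 gRNA, 57.3 ± 12.0 in control gRNA and 62.1 ± 25.4 in PBS libraries, neither of them called. Of the microsomal transferases, which sit in membranes, Mgst1 averaged 1520.0 ± 368 CPM after Pdx1 gRNA, 1723 ± 584 after the control gRNA and 2560.1 ± 735 after PBS and was not called (-0.75 ± 0.31 after Pdx1 gRNA and -0.57 ± 0.31 after control gRNA). Mgst3 had 45.3, 49.3, 50.2 and 65.1 CPM in Pdx1 gRNA libraries, 70.9, 77.9, 99.0 and 103 CPM in control gRNA libraries and 56.4, 11.8, 25.5 and 37.3 CPM in PBS libraries. The control gRNA group stood above both others, and Mgst3 was called there (1.41 ± 0.35, edgeR adjusted p = 0.00894) but not after Pdx1 gRNA (0.67 ± 0.34, edgeR adjusted p = 0.176).

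The transferases together took 1.57 ± 0.362% of all assigned counts after Pdx1 gRNA, 2.04 ± 0.421% after the control gRNA and 0.670 ± 0.128% after PBS (SD, n = 4 each). The lowest virus library had 1.31% and the highest PBS library 0.780%. The mu class accounted for most of the difference in share, with 1.02 ± 0.332% after Pdx1 gRNA, 1.4 ± 0.388% after the control gRNA and 0.171 ± 0.0264% after PBS. Gstm1 alone took 0.734 ± 0.188% of counts in Pdx1 gRNA, 0.936 ± 0.210% in control gRNA and 0.134 ± 0.0228% in PBS libraries.

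Per exon length, as CPM per kilobase of exon (FPKM, a level), the order of the transferases differed between virus and PBS groups. After Pdx1 gRNA it was led by Gstm1 with 4705 ± 728 FPKM, Gstp1 with 2227 ± 502 and Gstm3 with 1488 ± 746. After control gRNA Gstm1 led with 5750 ± 1269 FPKM, followed by Gstm3 with 2531 ± 1090 and Gstp1 with 2509 ± 139. After PBS the order began with Mgst1 at 1272 ± 365 FPKM, Gstp1 at 1251 ± 1417 and Gstm1 at 1052 ± 146, and Gstm3 ranked 9 at 57.9 ± 19.3. The ranges of the top 3 overlapped in the PBS group, as did those of Gstm3 and Gstp1 in either virus group. Gstm1 stood apart in the virus groups: its lowest library had 4164 FPKM after Pdx1 gRNA and 4630.5 after control gRNA, while the highest library of the next gene had 2964 FPKM (Gstp1) after Pdx1 gRNA and 3785 FPKM (Gstm3) after control gRNA.

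**Figure D3:**
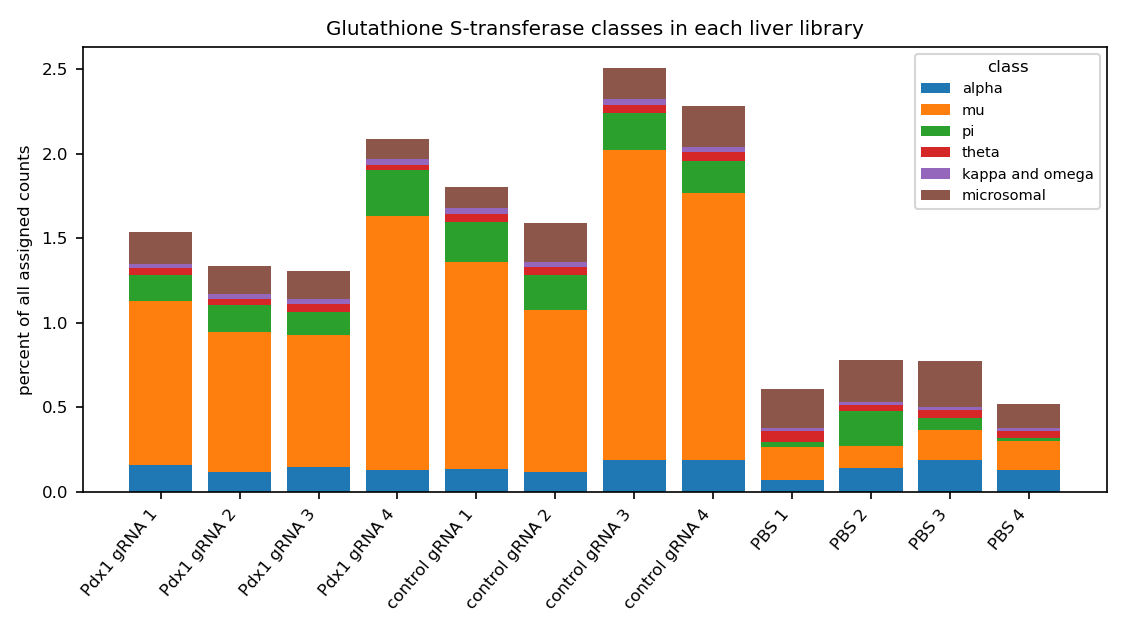
Percent of all assigned counts (y axis) taken by each class of glutathione S-transferase, stacked, in each of the 4 Pdx1 gRNA, 4 control gRNA and 4 PBS liver libraries. The virus libraries reach 1.31 to 2.50% and the PBS libraries 0.522 to 0.780%, and the mu class makes up most of the gap.

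Of the genes of conjugation and export, Abcc4 and Ugdh rose and Abcc3 fell in both comparisons. Abcc4 is an efflux pump of organic anions and bile acids on the sinusoidal side of hepatocytes, and Ugdh makes UDP-glucuronic acid, the donor for glucuronidation. Both promoters are shown because both genes rose and the windows hold the antioxidant core (capitals; GRCm38.p6, minus strand, chr5:65435793-65436092 for Ugdh and the upstream window chr14:118706170-118706469 for Abcc4, where the core is read on the other strand). The Ugdh window holds the core on both strands.
Ugdh: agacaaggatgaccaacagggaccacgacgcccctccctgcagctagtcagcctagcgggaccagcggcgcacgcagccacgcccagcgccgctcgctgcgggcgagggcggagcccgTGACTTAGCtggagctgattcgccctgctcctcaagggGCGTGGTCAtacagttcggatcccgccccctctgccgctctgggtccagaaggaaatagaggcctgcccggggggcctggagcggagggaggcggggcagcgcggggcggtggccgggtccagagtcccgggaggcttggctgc
Abcc4: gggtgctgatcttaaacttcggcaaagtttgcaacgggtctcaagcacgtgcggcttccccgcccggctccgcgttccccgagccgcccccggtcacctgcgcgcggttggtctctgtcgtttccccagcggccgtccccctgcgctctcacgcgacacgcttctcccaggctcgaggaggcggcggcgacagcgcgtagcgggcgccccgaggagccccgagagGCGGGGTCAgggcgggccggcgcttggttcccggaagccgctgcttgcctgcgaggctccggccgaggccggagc
Abcc4 had 97.7, 121, 201 and 542 CPM in Pdx1 gRNA libraries, 339, 111, 325 and 191 CPM in control gRNA libraries and 2.94, 2.95, 3.48 and 17.9 CPM in PBS libraries. The lowest virus library was several times the highest PBS library, which was PBS 4. Its log2 fold change was 5.13 ± 0.80 for Pdx1 gRNA against PBS and 5.13 ± 0.80 for control gRNA against PBS, with edgeR adjusted p = 0.00163 and 0.00108. Without PBS 4 it was 6.27 in each comparison, and without Pdx1 gRNA 4 it was 4.33 for Pdx1 gRNA against PBS, all still called. Ugdh had 404, 413, 494 and 715 CPM in Pdx1 gRNA libraries, 702, 559, 747 and 757 CPM in control gRNA libraries and 102, 257, 261 and 254 CPM in PBS libraries. The groups were fully apart, and Ugdh rose by 1.21 ± 0.29 after Pdx1 gRNA and 1.66 ± 0.29 after control gRNA (edgeR adjusted p = 0.0119 and 0.00183).

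Abcc3, a related pump that exports glucuronides and is often listed with NRF2 targets, had 253, 352, 245 and 297 CPM in Pdx1 gRNA libraries, 162, 264, 329 and 330.4 CPM in control gRNA libraries and 305, 535, 581 and 539.7 CPM in PBS libraries. PBS 1 overlapped both virus groups and the other 3 PBS libraries lay above them. Abcc3 fell by 0.77 ± 0.26 after Pdx1 gRNA and 0.85 ± 0.26 after control gRNA (edgeR adjusted p = 0.0479 and 0.0245). The call was lost after Pdx1 gRNA without any 1 of 10 libraries, all but PBS 1 and control gRNA 1 (up to 0.122), and after control gRNA without any 1 of PBS 2 to 4, control gRNA 1 or control gRNA 2 (up to 0.0672).

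NADPH, which Gsr and Nqo1 consume, is supplied by the pentose phosphate pathway, of which 4 genes are members. Pgd, the 6-phosphogluconate dehydrogenase, had 114, 143, 118 and 338 CPM in Pdx1 gRNA libraries, 242, 134, 230.1 and 194 CPM in control gRNA libraries and 50.5, 62.7, 75.6 and 72.5 CPM in PBS libraries. No virus library reached down to PBS, and Pgd rose by 1.45 ± 0.33 after Pdx1 gRNA and 1.61 ± 0.33 after control gRNA (edgeR adjusted p = 0.00974 and 0.00392). G6pdx, the first enzyme of the pathway, had 6.84, 6.41, 5.51 and 24.7 CPM in Pdx1 gRNA libraries, 26.8, 9.03, 19.4 and 13.2 CPM in control gRNA libraries and 4.44, 7.60, 7.38 and 10.4 CPM in PBS libraries. Both virus groups overlapped PBS, and it was not called (0.55 ± 0.49 after Pdx1 gRNA and 1.20 ± 0.49 after control gRNA, edgeR adjusted p = 0.438 and 0.0757). Without Pdx1 gRNA 4 the value after Pdx1 gRNA was -0.27. Taldo1 and Tkt, which return sugars to glycolysis, were called after control gRNA alone, with 0.47 ± 0.15 for Taldo1 and 0.58 ± 0.17 for Tkt. After Pdx1 gRNA the values were 0.23 ± 0.15 for Taldo1 and 0.49 ± 0.17 for Tkt, where the edgeR adjusted p of Tkt was 0.0520. The Taldo1 call was lost without any 1 of PBS 3, PBS 4 or control gRNA 2 to 4 (up to 0.0733), and that of Tkt without any 1 of PBS 4 or control gRNA 1, 3 or 4 (up to 0.0609).

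RefSeq's table of promoter windows held 49 windows for 38 of the members. The antioxidant core TGACNNNGC, searched on both strands, was found in 13 of them, or 26.5%, against 12.4% of all 32851 windows of 300 bases. These windows belong to 12 members: Abcc4, Gstm5, Pgd, Srxn1 and Ugdh, which rose in both comparisons, and G6pdx, Gclm, Gsta3, Gstm7, Mgst1, Nfe2l2 and Txnrd1, which were called in neither. The dioxin response core GCGTG, which can overlap the antioxidant core, was found in 21 of the 49 windows, or 42.9%, against 32.4% of all windows. A match is a stretch of letters, and no binding was measured in these livers. The search took these letters alone, so a window without a match may hold another form of the element. Gsta4, Gstt2, Gclc, Hmox1, Gsr and Abcc3 had no window in the table.

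The direct comparison of the 2 viruses asks whether the set differed with the gRNA. No member was called for Pdx1 gRNA against control gRNA (0% of all tested genes were), and 4 of the 43 had an unadjusted p under 0.05, against 6.03% of all tested genes. These 4 were Gpx2, Gsta4, Gsta1 and Mgst3, all lower after Pdx1 gRNA. DESeq2 called 14 genes and no member, and limma-voom called none. The targeted gene Pdx1, with 368 counts against 2, was itself not called in the edgeR test (7.42 ± 1.11, edgeR adjusted p = 0.444). The lack of calls therefore does not show that the set was alike after the 2 viruses. The log2 fold change was below 0 for 37 of the 43 members, against 50.9% of all tested genes, with a median of -0.17 against -0.01. Mgst3 was the 1 member whose groups did not overlap, lower after Pdx1 gRNA (6.65% of all tested genes did not overlap, and 3.17% were lower), with -0.74 ± 0.34 and edgeR adjusted p = 0.809. Its libraries, given above, reached 65.1 CPM after Pdx1 gRNA and at least 70.9 CPM after control gRNA.

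This comparison depended on Pdx1 gRNA library 4. Relative to the PBS mean, the median log2 ratio of the members was 0.59, 0.72, 0.61 and 1.32 in Pdx1 gRNA libraries 1 to 4 and 1.11, 0.92, 1.37 and 1.17 in control gRNA libraries. Pdx1 gRNA 1 to 3 thus lay below all control gRNA libraries, and Pdx1 gRNA 4 lay among them. Pdx1 gRNA 4 was also the library with the highest Pdx1 level, at 13 CPM against 1.35, 2.36 and 4.08 CPM in the other libraries of its group. Without Pdx1 gRNA 4 the groups did not overlap for 16 members, 15 of them lower and 1 higher after Pdx1 gRNA. Among all tested genes, 7.5% were lower and 8.61% higher without overlap. No member was called without that library either. Pdx1 gRNA 4 was singled out after its values on these members were seen, so the count follows in part from the choice. Leaving out any other single virus library gave 1 to 3 members. Control gRNA 3 was the highest of the 8 virus libraries for 12 members, or 27.9%, against 8.04% of all tested genes. Pdx1 gRNA 4 was the highest for 10, or 23.3%, against 18.3% of all tested genes. Without control gRNA 3 and Pdx1 gRNA 4 together, an alternative chosen after seeing the data, 12 members were called for Pdx1 gRNA against PBS in place of 24, while calls over all tested genes were 10.4% in place of 22.1%.

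**Figure D4:**
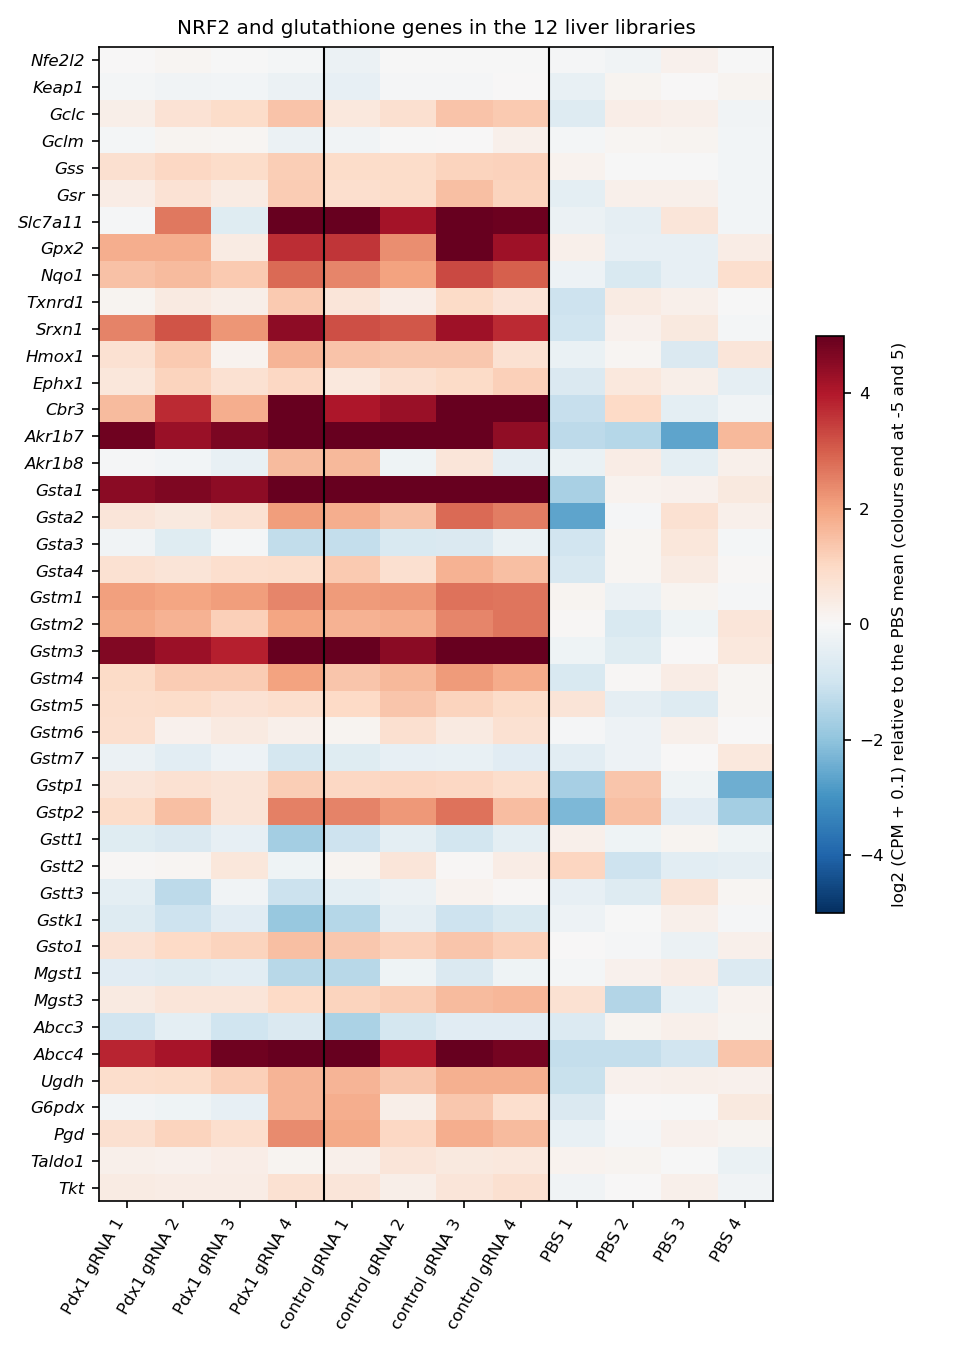
Log2 of CPM plus 0.1 relative to the PBS mean (colour, ending at -5 and 5) for the 43 tested genes (rows) in the 12 liver libraries (columns), Pdx1 gRNA left, control gRNA in the middle and PBS right. Red rows such as Gsta1, Gstm3 and Abcc4 span all virus libraries, and Slc7a11 and Cbr3 are far stronger in Pdx1 gRNA 4 than in Pdx1 gRNA 1 to 3.

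PBS libraries 2 and 3 separated from PBS 1 and 4 for 22 of the 43 members, above them for 14 and below for 8, or 51.2%, against 43.6% of all tested genes. Without PBS 2 and 3, 14 members rose and none fell after Pdx1 gRNA, where 7.90% of genes were called, and 25 rose and none fell after control gRNA, where 14.0% of genes were called. Of the members that rose with all libraries, 12 of 21 after Pdx1 gRNA and 24 of 28 after control gRNA kept their call. After Pdx1 gRNA the calls of 9 members ended. For 5 of them the log2 fold change was larger than with all libraries, at 7.85 for Slc7a11, 5.42 for Cbr3, 1.53 for Pgd, 1.28 for Gclc and 1.04 for Gsr. For the other 4 it was smaller, at 5.61 for Akr1b7, 1.55 for Nqo1, 0.87 for Hmox1 and 0.44 for Gstm5. After control gRNA the calls of Slc7a11 (7.36), Hmox1 (1.01), Gstm6 (0.55) and Taldo1 (0.52) ended. Gstp1 was gained in both and Gstp2 after Pdx1 gRNA. The calls of Gstt1, Gstk1 and Abcc3 also ended in both comparisons, while the log2 fold changes stayed below 0. They were -0.83 after Pdx1 gRNA and -0.76 after control gRNA for Gstt1, -0.84 and -0.76 in these comparisons for Gstk1, and -0.57 and -0.67 for Abcc3. This setting leaves 2 PBS libraries in place of 4, and all 44 members passed the filter in it. Leaving out 1 library also gave calls that were absent with all 12. Without PBS 1 these were Gstt2 (0.79 after Pdx1 gRNA and 0.95 after control gRNA), Gstm7 (-0.61 and -0.62 in these comparisons), Mgst3 after Pdx1 gRNA (1.07) and Gsta3 after control gRNA (-0.93). Without PBS 2 they were Gstp1 (1.98 after Pdx1 gRNA and 2.15 after control gRNA) and Gstp2 after Pdx1 gRNA (3.04). Tkt after Pdx1 gRNA was called without PBS 3 (0.58), G6pdx after control gRNA without Pdx1 gRNA 4 (1.19) and Gpx2 after Pdx1 gRNA without control gRNA 3 (3.80).

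Other genes of these pathways were read from 8 lists, in the same test and with the same background. Of 30 other NRF2-linked genes, 8 rose and 2 fell after Pdx1 gRNA, and 11 rose and 3 fell after control gRNA. Htatip2, an oxidoreductase, rose by 2.22 after Pdx1 gRNA and 2.40 after control gRNA on the log2 scale, the ferritin light chain Ftl1 by 0.91 after Pdx1 gRNA and 1.22 after control gRNA, and Gpx4, the peroxidase of lipid hydroperoxides, by 0.71 after Pdx1 gRNA and 1.04 after control gRNA. Of 28 other glutathione genes tested, 8 rose and 2 fell after Pdx1 gRNA, and 9 rose and 4 fell after control gRNA. Gpx3, the secreted glutathione peroxidase, had 51.2, 108, 94.6 and 563 CPM in Pdx1 gRNA libraries, 213, 304, 341 and 253 CPM in control gRNA libraries and 6.17, 5.70, 5.43 and 4.94 CPM in PBS libraries. All virus libraries lay far above PBS, and Gpx3 rose by 5.20 ± 0.68 after Pdx1 gRNA and 5.64 ± 0.70 after control gRNA. Chac1, which degrades glutathione, fell by 2.48 after Pdx1 gRNA and fell by 3.13 after control gRNA, with no overlap between virus and PBS libraries. The pseudogene Gstm2-ps1, which shares sequence with Gstm1, rose by 2.37 after Pdx1 gRNA and 2.71 after control gRNA.

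The shares of all tested genes called, given above, are the background of the following lists too. Of 18 tested genes of cysteine supply, 3 rose and 5 fell after Pdx1 gRNA, and 2 rose and 8 fell after control gRNA, among them Slc1a4, a transporter of neutral amino acids, which rose by 2.70 after Pdx1 gRNA and 2.71 after control gRNA. Mat1a, the liver methionine adenosyltransferase, fell by 1.41 after Pdx1 gRNA and fell by 1.90 after control gRNA. Of 15 other NADPH genes, 1 rose and 6 fell in each comparison, and Idh1, the cytosolic isocitrate dehydrogenase, fell by 0.81 after Pdx1 gRNA and fell by 0.89 after control gRNA. Of 18 genes of peroxide and superoxide removal, 2 rose and 2 fell after Pdx1 gRNA, and 3 rose and 2 fell after control gRNA. Prdx3, a peroxiredoxin, rose by 0.70 after control gRNA and was not called after Pdx1 gRNA (0.40). Catalase (Cat) fell by 0.95 after Pdx1 gRNA and by 1.09 after control gRNA, and both virus groups overlapped PBS. Of 15 genes linked to the xenobiotic receptors CAR and PXR, 1 rose and 3 fell after Pdx1 gRNA, and 1 rose and 7 fell after control gRNA, where Cyp2c55 rose by 2.10 after Pdx1 gRNA and 2.42 after control gRNA and the carboxylesterase Ces2a fell by 0.84 after Pdx1 gRNA and fell by 1.34 after control gRNA. Of 6 tested genes linked to the dioxin receptor AHR, 1 rose and none fell after Pdx1 gRNA, and 2 rose and 2 fell after control gRNA. Cyp1a1 rose by 1.04 after Pdx1 gRNA and 0.93 after control gRNA. After control gRNA alone, Arnt fell by 0.39 and Cyp1a2 rose by 1.04. Their values after Pdx1 gRNA were -0.18 for Arnt and 0.62 for Cyp1a2, neither called.

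Markers of cell types were read in the same test. Of all tested genes, 11.7% rose and 10.4% fell after Pdx1 gRNA, and 16.3% rose and 15.8% fell after control gRNA. A call of 1 marker in a list is therefore not read as a result about its cell type. Of 8 hepatocyte markers, 1 fell after Pdx1 gRNA and 6 fell after control gRNA, and their summed level ran from 50927 to 102731 CPM in Pdx1 gRNA libraries, from 51729 to 69154 CPM in control gRNA libraries and from 85488 to 123065 CPM in PBS libraries. Of 5 tested cholangiocyte markers, none was called after Pdx1 gRNA and 3 rose after control gRNA, with summed levels from 46.2 to 104 CPM in Pdx1 gRNA libraries, from 59.0 to 407 CPM in control gRNA libraries and from 24.4 to 70.0 CPM in PBS libraries. Of 7 macrophage markers none was called after Pdx1 gRNA and 1 rose after control gRNA, with summed levels from 198 to 526 CPM in Pdx1 gRNA libraries, from 248 to 744 CPM in control gRNA libraries and from 160.3 to 673 CPM in PBS libraries. Of 5 endothelial markers 3 fell after Pdx1 gRNA and 2 after control gRNA, with summed levels from 65.4 to 120.4 CPM in Pdx1 gRNA libraries, from 75.4 to 134 CPM in control gRNA libraries and from 134 to 328 CPM in PBS libraries. Of 4 red cell markers 1 fell after Pdx1 gRNA and 3 after control gRNA, with summed levels from 75.2 to 168 CPM in Pdx1 gRNA libraries, from 51.6 to 191 CPM in control gRNA libraries and from 317 to 415 CPM in PBS libraries. Of 5 T cell markers none was called after Pdx1 gRNA and 1 rose after control gRNA, and none of 5 stellate and fibroblast or 2 tested neutrophil markers was called in either. No marker of these lists was at 0 in all libraries, and any part of marker differences in the results of the set was not tested.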

How the data were processed

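RNA-seq was analysed from 12 mouse liver libraries, 4 each after Pdx1 gRNA virus, control gRNA virus and PBS. The deposited values are raw counts per gene. Per the file headers, the authors made them with featureCounts 1.4.6-p4 on GENCODE M13 exons, as read pairs with both ends mapped and without using strand. The submitters' processing notes name Trimmomatic 0.32, STAR 2.4.1a, DESeq2 1.22.0 and the builds GRCm38 and mm10. Reads shared by near-identical copies can therefore be lost or split.

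Counts were filtered with filterByExpr (minimum count 10), scaled by TMM and tested with edgeR 4.0.16 (R 4.3.3), in 1 quasi-likelihood model of all 12 libraries with group as the term. P-values are two-sided and adjusted by Benjamini-Hochberg over 15219 genes, and the threshold was 0.05. FPKM is CPM per kilobase of the exon length in the files. Depth was 11824767 to 22008046 counts per library, and counting intervals are exact at 95%. The code was tested on simulated data. Alternatives included DESeq2 1.42.0, limma 3.58.1, other scalings and filters, a fold threshold, a replicate block and leaving out libraries.

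The members and lists were chosen with earlier results of these data known. All 44 members are accounted for, and from each of 8 related lists up to 3 genes with the smallest p for control gRNA against PBS could be named. Pdx1, Xist, Ddx3y and the cell type markers served as checks, and Gm3776 was named as a near-copy of Gsta1. Promoter sequences are from RefSeq GRCm38.p6 and coding stretches from GENCODE M21 transcripts. No columns were left unmapped.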

Additional observations from a re-analysis of the deposited data

Results flagged for a closer look

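Each group of 4 libraries of each tested member, and of Mgst2, was checked for a library whose gap to its nearest neighbour took up more than 0.829 of the group's range (Dixon's test), and 19 of 132 groups had one. For independent, normally distributed values this cut-off flags about 1 in 20 groups. The members were measured in the same 12 libraries and are not independent, so the count of flags is not set against that rate. Pdx1 gRNA library 4 stood apart in 11 of the 19. It was the highest of its group for Slc7a11 (123 CPM), Nqo1 (62.4 CPM), Cbr3 (75.7 CPM), Akr1b7 (307 CPM), Akr1b8 (7.67 CPM), Gsta1 (147 CPM), Gsta2 (160.1 CPM), G6pdx (24.7 CPM), Pgd (338 CPM) and Tkt (279.5 CPM), and the lowest for Mgst1 (974 CPM).

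Among control gRNA libraries, library 3 was high for Gpx2 (11.7 CPM), library 4 low for Hmox1 (46.4 CPM) and library 1 low for Nfe2l2 (71.6 CPM). Among PBS libraries, library 4 was high for Akr1b7 (3.79 CPM) and Abcc4 (17.9 CPM). PBS library 1 was high for Gstt2 (257 CPM) and low for Abcc3 (305 CPM) and Ugdh (102 CPM).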

How the results depend on the processing

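No called value reversed under the 26 alternatives. Of 3349 values of single members, 3084 kept their side of the threshold, 238 lost it and 27 gained it, and 89 that were not called changed sign. These values pool the 3 comparisons. For Pdx1 gRNA against control gRNA no member was called, so its values could not lose a call. All losses fell on values called against PBS, so the pooled share makes those calls look steadier than they were. For Pdx1 gRNA against PBS, 24 members were called (14 to 22 without 1 library, 11 with a 1.5-fold threshold, 14 without PBS 2 and 3, 12 without control gRNA 3 and Pdx1 gRNA 4). Higher calls were 21 (13 to 19, 11 with the fold threshold, 12 without those 2 virus libraries). Lower calls were 3 (0 to 3), 1 with upper-quartile scaling, no filter or only the 8 libraries compared, and 0 with the fold threshold, without PBS 2 and 3, with a covariate for them, or without the 2 virus libraries. All genes called were 3370 (2132 to 5421), with 2017 for only the 8 libraries, 595 for the fold threshold, 1277 without PBS 2 and 3, 1795 with the covariate and 1596 without the 2 virus libraries. Related lists had 48 calls (30 to 66), with 30, 12, 15, 25 and 22 in the same order.

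For control gRNA against PBS, 31 members were called (22 to 32 without 1 library, 17 with the fold threshold), 28 higher (21 to 29, 17) and 3 lower (0 to 4). Lower calls were 0 with the fold threshold, without PBS 2 and 3, and with the covariate. All genes called were 4887 (3445 to 6875), with 1358, 2258 and 2785 in that order, and related lists had 67 calls (50 to 71), with 24, 33 and 41. Upper-quartile scaling moved the median of all genes to 0.10, with 3001 genes higher and 1854 lower, against 2488 and 2399. For Pdx1 gRNA against control gRNA, 0 genes were called (0 to 1 without 1 library), 14 with DESeq2 and 1 with only the 8 libraries, and groups did not overlap for 1 member (1 to 16). Non-overlapping members against PBS were 22 (23 to 26) after Pdx1 gRNA and 29 (29 to 33) after control gRNA. The cause of these shifts was not tested.

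The replicate block gave 22 members for Pdx1 gRNA against PBS, 20 higher and 2 lower, among 2553 genes. It gave 28 for control gRNA against PBS, 26 higher and 2 lower, among 4127 genes, and 0 for Pdx1 gRNA against control gRNA. The labels do not say that the numbers pair the libraries. Of 12 same-numbered pairs 3 correlated above 0.1, and 2 of 12 libraries correlated best with their own number. With 4 libraries a group, this check cannot decide whether they were paired. With 4 libraries a group, members of few counts such as Gpx2 and Slc7a11 are the least precise.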
